A study of Mus musculus with 6 samples.

Results

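The 9 genes described here, Elovl1, Elovl2, Elovl3, Elovl5, Fads1, Fads2, Fads3, Scd2 and Hacl1, encode enzymes that lengthen, desaturate or shorten long-chain fatty acids. They were chosen by gene symbol from the 23284 genes of the count tables. All 9 were among the 12453 genes that passed the filter on low counts. Liver RNA was compared between 3 mice expressing FXR-WT and 3 mice expressing Y67F-FXR, in which the tyrosine of the bile acid receptor FXR that the study examined is replaced by phenylalanine. All were male FXR floxed mice injected through the tail vein at 8 weeks of age with AAV8 carrying Cre recombinase and AAV8 carrying human FXR, both under the hepatocyte-directed TBG promoter. Every mouse thus carried the floxed allele and received Cre, and other liver cells and the intestine were not targeted. After 4 weeks, all mice were fed chow with 0.5% cholic acid for 6 h before the livers were taken. The labels number the mice of each group from 1 to 3 and do not say whether they shared a litter or a cage.

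Fatty acid elongation takes place in the endoplasmic reticulum, where an Elovl enzyme performs the first and rate-limiting condensation and partner enzymes complete each cycle. Elovl1 and Elovl3 act on saturated and monounsaturated chains, while Elovl2 and Elovl5 act on polyunsaturated chains. Fads2 (delta-6 desaturase) and Fads1 (delta-5 desaturase) alternate with Elovl5 and Elovl2 to convert the essential dietary fatty acids into arachidonic and docosahexaenoic acids, a pathway for which liver is a main site. Scd2 introduces the first double bond into saturated chains, and Scd1 is its paralog in liver. Hacl1 cleaves 2-hydroxyacyl-CoA in peroxisomes, a step of alpha-oxidation of branched chains such as phytanic acid. In mouse liver, Elovl3 is known to be higher in males than in females and to vary with time of day.

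The elongases and the front-end desaturases each carry a short histidine-rich run, the histidine box, that the enzyme needs for activity. The coding bases of that run are shown to illustrate how far the members differ in sequence, with its 5 codons in capitals and 5 codons on either side in lower case. They were read from the longest open reading frame of GENCODE M21 transcripts on GRCm38.
Elovl1: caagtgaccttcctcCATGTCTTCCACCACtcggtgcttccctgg
Elovl2: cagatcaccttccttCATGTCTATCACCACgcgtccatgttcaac
Elovl3: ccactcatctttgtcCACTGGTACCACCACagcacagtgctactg
Elovl5: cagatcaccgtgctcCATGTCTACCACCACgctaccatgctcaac
Fads1: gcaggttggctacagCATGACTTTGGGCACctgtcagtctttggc
Fads2: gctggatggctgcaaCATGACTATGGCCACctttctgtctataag
Fads3: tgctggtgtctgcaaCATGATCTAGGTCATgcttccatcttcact
Over these 45 bases, Elovl2 and Elovl5 differed at 7 positions. Elovl3 differed from Elovl5 at 20 positions and from Elovl1 and Elovl2 at 23 each. Fads1 and Fads2 differed at 12 positions, and Fads3 differed from them at 22 and 20. Of all 100-base windows of the member transcripts, as long as 1 read, none occurred in a transcript of another gene for the 7 elongases and front-end desaturases shown. For Scd2, 0.896% of its windows also occurred in Scd1 or Scd3. For Hacl1, 52.7% occurred in Gm49387, an overlapping gene model of GENCODE.

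The libraries held from 19551113 to 22053320 reads on genes. The 9 members took from 0.168% to 0.258% of these reads, with the lowest shares in Y67F-FXR replicate 2 and FXR-WT replicate 1. The libraries also differed by gene length. Among the 20% of tested genes with the shortest exon length, log2 CPM deviated from the mean of the 6 livers by a median of 0.20 in this FXR-WT library and 0.22 in this Y67F-FXR library. FXR-WT replicate 3 stood at -0.18 and replicate 1 of Y67F-FXR at -0.20, about as far in the opposite direction, with the remaining libraries near 0. The log2 fold changes of the members are also given without FXR-WT replicate 1 and Y67F-FXR replicate 2, the pair with the smallest share of member reads. The livers expressed hepatocyte markers at a high level, with Alb at 6.90% to 7.36% of the reads of each library, and none of the 8 hepatocyte markers was called as different. Counts of livers within a group differed beyond sampling noise (chi-square of up to 81.5 per gene), and none was treated as a repeat of another.

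Levels of the members were first compared with each other. CPM, the read count of a gene relative to its scaled library size, was divided by the exon length of each gene in kb for this purpose. Fads2 was the most abundant member, with a mean of 239 CPM per kb over the 6 livers, and was followed by Elovl5 at 181, Fads1 at 132, Elovl2 at 128 and Hacl1 at 96.1 CPM per kb. Elovl3 at 36.7 and Elovl1 at 22.3 CPM per kb formed a middle pair, and Fads3 at 2.40 and Scd2 at 0.934 CPM per kb were far lower. Fads2 was above Elovl5 in 6 of 6 livers. Fads1 and Elovl2 did not differ beyond their spread, since Fads1 was higher in 4 of 6 livers. The order of Elovl3 and Elovl1 depended on the group. Elovl3 was above Elovl1 in 0 of 3 FXR-WT and in 3 of 3 Y67F-FXR livers. The Fads2 gene model used for counting was 1508 bp long, whereas the GENCODE transcript of Fads2 has 3150 bases, so only part of this transcript was counted.

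**Figure D1:**
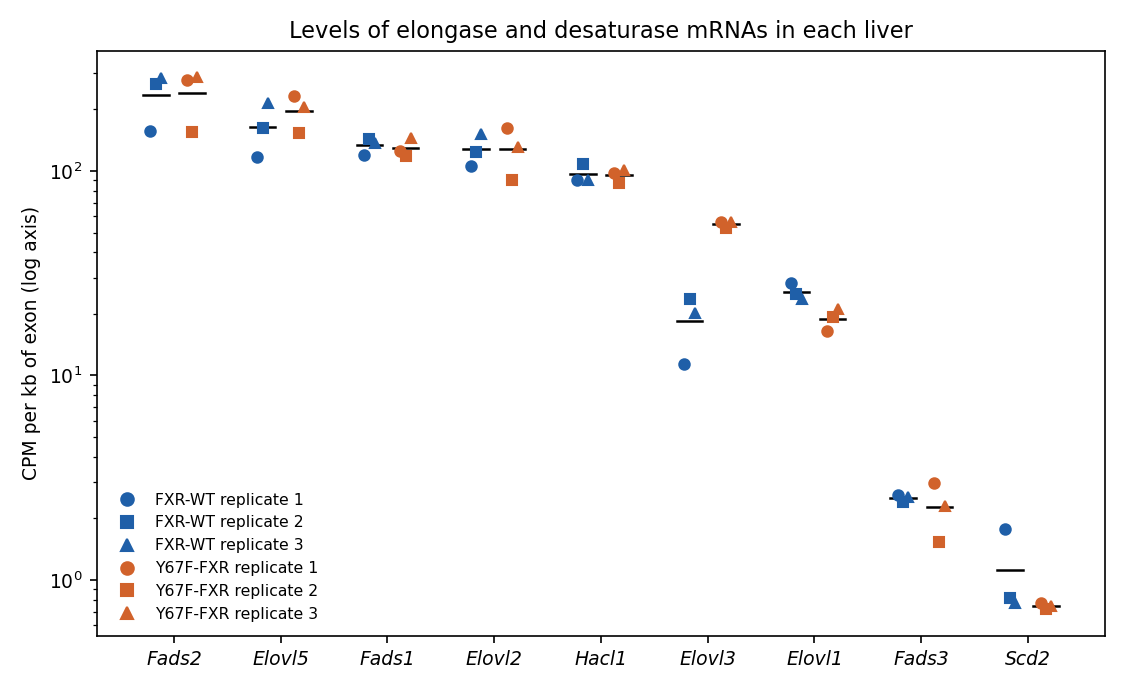
Levels of the 9 members in CPM per kb of exon, on a log axis, in 3 FXR-WT livers (blue) and 3 Y67F-FXR livers (orange). Symbols mark the replicates and bars the group means. Elovl3 lay between 11.4 and 23.6 CPM per kb in FXR-WT and between 52.6 and 56.3 CPM per kb in Y67F-FXR livers.

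To examine whether mutation of Y67 in FXR was accompanied by changes in these enzymes, the counts of the 2 groups were compared over all genes with edgeR's quasi-likelihood test. Calls required more than a 1.5-fold difference together with an adjusted p (Benjamini-Hochberg) below 0.05. Of the 9 members, Elovl3 was called as higher and 0 were called as lower in Y67F-FXR livers. Over all 12453 tested genes, 0.546% were called as higher and 0.426% as lower. At an unadjusted p under 0.05, 2 members passed, Elovl3 and Elovl1, and 13.4% of all tested genes did. With the 1.5-fold minimum added, 1 member (Elovl3) and 6.29% of all tested genes remained. The groups did not overlap for 1 member lower in Y67F-FXR (Elovl1) and 1 member higher (Elovl3), against 10.5% and 10.2% of all tested genes. The median log2 fold change of the members was -0.01, and that of all tested genes was 0.01. Fewer cells of a type and less RNA per cell cannot be told apart in these whole-liver libraries. Of 8 stellate cell and fibroblast markers, 7 had a negative log2 fold change, with a median of -0.34. For 3 of the 8 the unadjusted p was under 0.05, for 3 the groups did not overlap, and 0 were called. The part of these cells in the differences of the members was not tested.

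Elovl3 (chromosome 19 of mm9, 46206389 to 46210184), an elongase of saturated and monounsaturated chains, rose 2.99-fold in Y67F-FXR livers. It had 21.4, 44.4 and 37.9 CPM in FXR-WT replicates 1 to 3 and 106, 98.9 and 106 CPM in Y67F-FXR replicates 1 to 3. The lowest Y67F-FXR liver was thus far above the highest FXR-WT liver, and the 3 Y67F-FXR livers were close to each other. The FXR-WT mean was 34.6 ± 11.8 CPM (SD, n = 3). The Y67F-FXR mean was 103 ± 3.96 CPM (SD, n = 3). The log2 fold change was 1.58 (standard error 0.245, 95% interval 1.01 to 2.15, adjusted p = 0.0336 by edgeR's quasi-likelihood test). On the log2 CPM scale, the SD among FXR-WT livers was 0.551, against a median of 0.211 over all tested genes. Among Y67F-FXR livers, the SD was 0.0558, against a median of 0.228.

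With 1 liver left out at a time, the log2 fold change of Elovl3 ranged from 1.33 to 1.80, but its call was lost in 5 of the 6 fits. Its adjusted p by edgeR's quasi-likelihood test was 0.0559 without FXR-WT replicate 2, 0.105 without FXR-WT replicate 3, 0.0890 without Y67F-FXR replicate 1, 0.0667 without Y67F-FXR replicate 2 and 0.137 without Y67F-FXR replicate 3. The call was kept without FXR-WT replicate 1 (adjusted p = 0.0200). With FXR-WT replicate 1 and Y67F-FXR replicate 2 both left out, a choice made after seeing the data, the log2 fold change was 1.35 (adjusted p = 0.00322 by the same edgeR test). FXR-WT replicate 1 was the lowest liver for Elovl3, and the standard error was 0.124 in this fit, compared with 0.245 with all livers.

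The count of Elovl3 includes few bases with another gene. Of its 1879 exon bases, the last 9 overlap an exon of Pitx3 on the opposite strand (chromosome 19 of mm9, 46210176 to 46210184), and reads touching both genes were not counted. Pitx3 itself had from 1 to 6 reads per library. The nearest tested neighbours of Elovl3 on the chromosome, Nolc1 and Gbf1, had log2 fold changes of 0.0007 and -0.27 and were not called. The genes whose log2 CPM followed that of Elovl3 most closely over the 6 livers were Adcy6 (Pearson's r = 0.999), B930025P03Rik (r = 0.998) and Cyp46a1 (r = 0.998), among 7823 candidates. These r values include the difference between the groups and are a description of 6 livers. A difference between the groups in these genes thus follows from how they were picked. Among these 3 genes, B930025P03Rik was called, with a log2 fold change of 1.32, whereas Adcy6 (0.92) and Cyp46a1 (1.16) had adjusted p of 0.0547 and 0.0752 by edgeR's quasi-likelihood test.

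For the other members, the 3 closest patterns were likewise read over the 6 livers, as a description that includes what these livers share. They were Zbtb43, Cat and Aco1 for Fads2 (r = 0.995, 0.994 and 0.991), and Ssx2ip, 2310044G17Rik and Gtf3c4 for Elovl5 (r = 0.995, 0.993 and 0.992). Cat encodes catalase, a peroxisomal enzyme, and Aco1 the cytosolic aconitase. For Fads1 they were Vps33a, Rfc5 and Pip5k1c (r = 0.984, 0.984 and 0.980), and for Scd2 Ahsg, Ampd2 and Ecd (r = 0.991, 0.986 and 0.972). None of these 12 genes was called, which is no separate result, since they were picked for likeness to members that were not called. The tested genes next to the other members were not called either, among them Gclc beside Elovl5 (-0.71 on the log2 scale) and BC024659 beside Elovl2 (0.50).

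Elovl1 (chromosome 4 of mm9, 118100698 to 118105521), which elongates saturated chains, was the only other member with groups that did not overlap. It had 53.7, 47.6 and 44.9 CPM in FXR-WT replicates 1 to 3 and 31.4, 36.6 and 40.3 CPM in Y67F-FXR replicates 1 to 3. Every Y67F-FXR liver was below every FXR-WT liver, by a small margin between the nearest livers. The fitted log2 fold change was -0.43 (standard error 0.138, 95% interval -0.75 to -0.11), with an unadjusted p of 0.0141 and an adjusted p of 0.220 by edgeR's quasi-likelihood test, so it was not called. It stayed between -0.51 and -0.34 with any 1 liver omitted. Groups did not overlap in 20.6% of all tested genes in either direction. Elovl1 shares 16 exon bases with Cdc20 on the opposite strand, which had from 4 to 8 reads per library. Within a liver, the ratio of Elovl3 to Elovl1 (both in CPM per kb) was 0.404, 0.944 and 0.855 in FXR-WT and 3.40, 2.74 and 2.66 in Y67F-FXR replicates 1 to 3. The mean log2 ratio differed by 2.08 between groups. Since the groups did not overlap for either gene, in opposite directions, those of the ratio could not overlap, and no test of it is given.

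**Figure D2:**
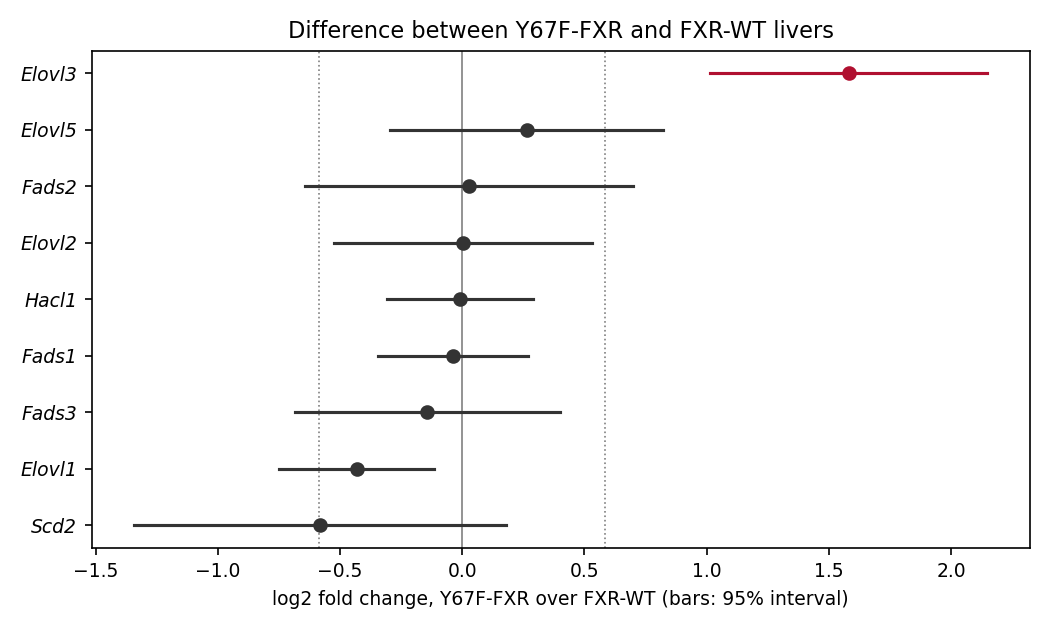
Log2 fold change of each member in Y67F-FXR over FXR-WT livers (points) with 95% intervals (bars) from edgeR's quasi-likelihood fit of 3 against 3 livers. Red marks a called gene and dotted lines a 1.5-fold difference. Elovl3, at 1.58, is the called member, and the intervals of all others except Elovl1 include 0.

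The Fads genes and the elongases of polyunsaturated chains had no called member. Fads2 (chromosome 19 of mm9, 10138654 to 10175993), which performs the first and rate-limiting desaturation, had 236, 404 and 430 CPM in FXR-WT and 421, 235 and 433 CPM in Y67F-FXR replicates 1 to 3. In each group, 1 liver was low and the other two were high, so the groups overlapped fully. The means were 356 ± 105 and 363 ± 111 CPM (SD, n = 3 each), and the log2 fold change was 0.03 (95% interval -0.64 to 0.70, adjusted p = 0.987 by edgeR's quasi-likelihood test). A change of 1.5-fold in either direction lies within this interval. Fads1 (chromosome 19 of mm9, 10257378 to 10271362), the next desaturase of the pathway, was far more even. It had 416, 495 and 473 CPM in FXR-WT and 433, 411 and 503 CPM in Y67F-FXR replicates 1 to 3, with a log2 fold change of -0.04 (95% interval -0.35 to 0.27). This interval is narrower than a 1.5-fold change in either direction. Fads3 (chromosome 19 of mm9, 10116038 to 10134161), the third gene of the cluster, was low. It had 8.51, 7.85 and 8.34 CPM in FXR-WT and 9.77, 5.02 and 7.54 CPM in Y67F-FXR replicates 1 to 3, a wide spread in the latter group that spanned all FXR-WT values. Its log2 fold change was -0.14 (95% interval -0.69 to 0.40).

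The elongases of polyunsaturated chains had overlapping groups. Elovl5 (chromosome 9 of mm9, 77765172 to 77832326) had 325, 451 and 598 CPM in FXR-WT and 648, 426 and 574 CPM in Y67F-FXR replicates 1 to 3. FXR-WT replicate 1 was the lowest and Y67F-FXR replicate 1 the highest of the 6 livers, and the log2 fold change was 0.26 (95% interval -0.30 to 0.82, adjusted p = 0.726 by edgeR's quasi-likelihood test). It was 0.06 without FXR-WT replicate 1 and 0.50 without FXR-WT replicate 3. Elovl2 (chromosome 13 of mm9, 41277751 to 41315772), which acts on the longer polyunsaturated chains, had 406, 476 and 585 CPM in FXR-WT and 622, 347 and 503 CPM in Y67F-FXR replicates 1 to 3. The group means were almost equal, at 489 ± 90.1 and 490 ± 138 CPM (SD, n = 3 each). The fitted difference on the log2 scale was 0.003 (95% interval -0.52 to 0.53).

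Livers within a group differed in the same direction for several members. FXR-WT replicate 1 was the lowest FXR-WT liver for 6 of 9 members (Elovl2, Elovl3, Elovl5, Fads1, Fads2 and Hacl1), and the same was true of 40.6% of all tested genes. Y67F-FXR replicate 2 was the lowest Y67F-FXR liver for 8 of 9 members, all except Elovl1, and for 43.7% of all tested genes. Both were the lowest of their group for the same 6 members and for 28.3% of all tested genes. Measured from the group mean on the log2 CPM scale, Fads2 deviated by -0.55 in the first of these libraries and by -0.58 in the second, and Fads1 by -0.15 and -0.12. Elovl5 deviated by -0.45 and -0.35 and Elovl2 by -0.25 and -0.46 in the same libraries. In these libraries short genes were high, at one end of the range of the 6 libraries. The part of RNA quality in these deviations was not tested. Without both libraries, the log2 fold changes were 0.02 for Fads2, -0.06 for Fads1, 0.21 for Elovl5, 0.07 for Elovl2, 0.08 for Fads3, -0.38 for Elovl1, -0.08 for Scd2 and -0.01 for Hacl1, and none of these was called.

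**Figure D3:**
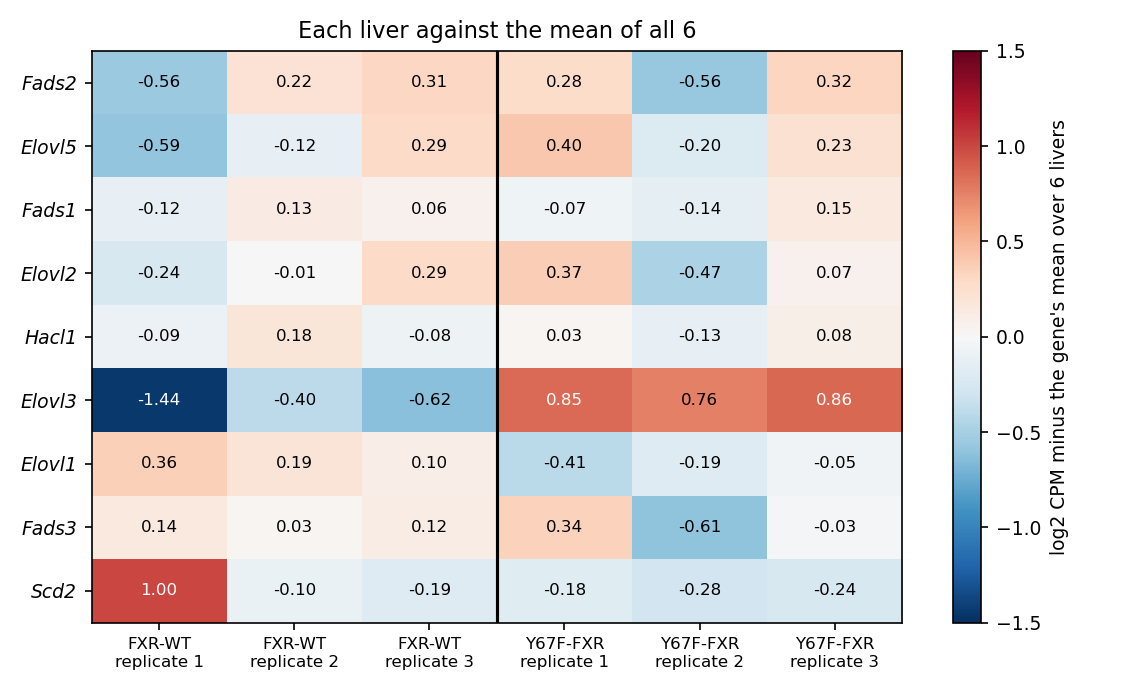
Log2 CPM of each member in each liver minus the mean of that gene over the 6 livers, with the value printed in each cell. Elovl3 was below its mean in all 3 FXR-WT livers (-1.44 to -0.40) and above it in all 3 Y67F-FXR livers (0.76 to 0.86). Fads2 stood at -0.56 both in FXR-WT replicate 1 and in replicate 2 of Y67F-FXR.

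Of the 9 members, 6 had promoter sequences in the RefSeq table used here (GRCm38.p6, 250 bases before to 50 after the start). The promoters of Elovl5 and Fads2, members that were low in the same livers, are shown with matches to CCAAT (the NF-Y box), TCACNCCAC (a sterol response element) and CACGTG (an E-box) on either strand in capitals.
Elovl5 promoter, chr9:77917115-77917414, plus strand: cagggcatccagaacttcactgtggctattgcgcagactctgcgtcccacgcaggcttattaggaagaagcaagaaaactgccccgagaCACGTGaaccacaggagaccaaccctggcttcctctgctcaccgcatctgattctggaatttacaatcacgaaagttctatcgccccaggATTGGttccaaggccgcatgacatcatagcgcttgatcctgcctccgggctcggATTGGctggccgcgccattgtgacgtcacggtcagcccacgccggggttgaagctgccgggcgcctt
Fads2 promoter, chr19:10101454-10101753, minus strand: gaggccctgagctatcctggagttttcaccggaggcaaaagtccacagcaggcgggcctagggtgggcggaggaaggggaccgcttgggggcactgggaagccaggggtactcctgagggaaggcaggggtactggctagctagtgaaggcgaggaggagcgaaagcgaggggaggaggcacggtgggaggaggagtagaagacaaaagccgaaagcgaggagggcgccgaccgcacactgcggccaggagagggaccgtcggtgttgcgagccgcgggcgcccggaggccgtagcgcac
The Elovl5 promoter held 2 NF-Y boxes, whose matches begin 71 and 17 bases before the start, and 1 E-box. None of these letters was found in the Fads2 window. Of 32851 promoters of the same length in the table, 37.4% held CCAAT, 7.15% held CACGTG and 1.24% held TCACNCCAC. Among the other members, 1 CCAAT match was found in Hacl1, 1 in the first of the promoters listed for Elovl1 and 2 in Fads3.

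The balance of paired enzymes within each liver was then compared, since such a ratio does not depend on how the libraries are scaled. The ratio of Fads1 to Fads2 was 0.771, 0.535 and 0.480 in FXR-WT and 0.449, 0.763 and 0.506 in Y67F-FXR replicates 1 to 3. It was highest in FXR-WT replicate 1 and Y67F-FXR replicate 2, the livers with the least Fads2. The mean log2 ratio differed by -0.06 between groups (exact permutation test, two-sided, p = 0.70). The ratio of Elovl2 to Elovl5 was 0.905, 0.766 and 0.709 in FXR-WT and 0.695, 0.589 and 0.634 in Y67F-FXR replicates 1 to 3. All 3 Y67F-FXR values were below the FXR-WT values, by very little between the nearest livers. The mean log2 ratio differed by -0.31 (exact permutation test, two-sided, p = 0.10, the smallest possible for 3 against 3 livers). It differed by -0.15 without FXR-WT replicate 1 and Y67F-FXR replicate 2. After Benjamini-Hochberg adjustment over the 4 ratios computed, the permutation p was 0.20. Those 4 include the Elovl3 to Elovl1 ratio, whose outcome was fixed, so this adjusted value is lower than it would be without that ratio.

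**Figure D4:**
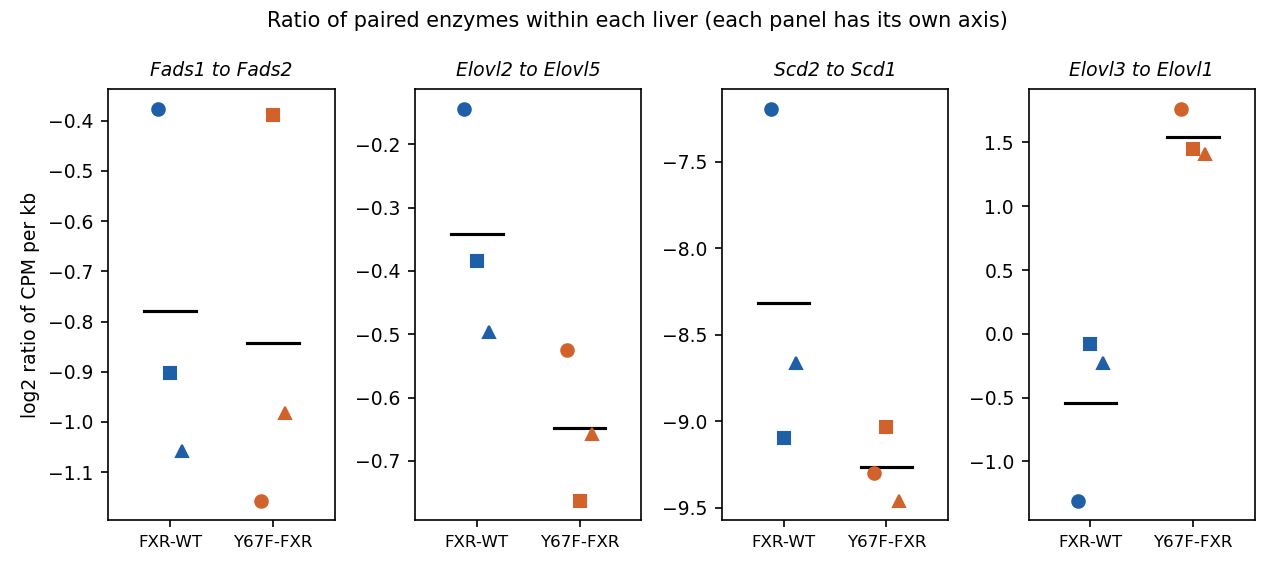
Log2 ratio of CPM per kb for 4 pairs of enzymes in each liver, with bars at the group means. Each panel has its own axis. The groups do not overlap for Elovl2 to Elovl5 and for Elovl3 to Elovl1, and they overlap for Fads1 to Fads2 and for Scd2 to Scd1.

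Scd2 (chromosome 19 of mm9, 44368166 to 44381352), a stearoyl-CoA desaturase that is most abundant outside the liver, was the least abundant member. It shares 61 exon bases with Mir5114 on the same strand, which had 0 reads in every library. Scd2 had 9.68, 4.46 and 4.19 CPM in FXR-WT and 4.23, 3.93 and 4.06 CPM in Y67F-FXR replicates 1 to 3. A single liver, FXR-WT replicate 1, was high and the remaining livers were alike. The log2 fold change of -0.58 (95% interval -1.34 to 0.18, adjusted p = 0.519 by edgeR's quasi-likelihood test) became -0.09 without that liver. Markers of other liver cells were also compared. In FXR-WT replicate 1, the summed CPM of the Kupffer cell and leukocyte markers was 209, against 178 and 149 in the other FXR-WT livers. It was 118, 270 and 181 in Y67F-FXR replicates 1 to 3, and replicate 2 of these had the lowest Scd2. The summed stellate cell markers stood at 229 CPM in FXR-WT replicate 1, against 210 and 214 CPM in the other FXR-WT livers and 153 to 212 CPM in Y67F-FXR livers. Cholangiocyte markers were lowest in FXR-WT replicate 1, with a sum of 46.2 CPM. They summed to 71.2 and 51.8 CPM in the other FXR-WT livers and 54.1 to 60.6 CPM in Y67F-FXR livers. Sinusoidal endothelium markers summed to 191, 186 and 161 CPM in FXR-WT replicates 1 to 3 and 165 to 174 CPM in Y67F-FXR livers. The part of these cells in the Scd2 value was not tested. Of 6 adipocyte markers, Lep and Ucp1 had no reads in any library, and Adipoq had a mean of 0.126 CPM in FXR-WT and 0.0821 CPM in Y67F-FXR livers. Their sum, 0.0978 to 7.37 CPM in FXR-WT and 2.29 to 11.6 CPM in Y67F-FXR livers, was carried by Cidea, a lipid droplet protein and the 1 tested marker of this list. Cidea had 0.0489, 7.03 and 4.54 CPM in FXR-WT and 6.37, 2.18 and 11.4 CPM in Y67F-FXR replicates 1 to 3, with a log2 fold change of 0.78 (adjusted p = 0.801 by edgeR's quasi-likelihood test).

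Scd1, the stearoyl-CoA desaturase of hepatocytes, had a mean of 340 CPM per kb in FXR-WT and 463 CPM per kb in Y67F-FXR livers, compared with 1.12 and 0.747 CPM per kb for Scd2. The ratio of Scd2 to Scd1 was 0.00684 in FXR-WT replicate 1 and lay between 0.00142 and 0.00247 in the other 5 livers. The mean log2 ratio differed by -0.95 between groups (exact permutation test, two-sided, p = 0.20) and by -0.38 without FXR-WT replicate 1. Hacl1 (chromosome 14 of mm9, 32420412 to 32454151) had 236, 284 and 238 CPM in FXR-WT and 257, 229 and 266 CPM in Y67F-FXR replicates 1 to 3. Its log2 fold change was -0.01 (95% interval -0.31 to 0.29), an interval narrower than a 1.5-fold change in either direction.

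Genes that act with these enzymes were examined as lists. Like the members, these were not chosen blind to the data, so their counts beside those of all genes are a description. Among other elongases and fatty acyl desaturases, 4 of the 10 genes found were tested and 0 were called. Scd1 differed by 0.45 on the log2 scale (adjusted p = 0.449 by edgeR's quasi-likelihood test), Elovl6, the elongase of palmitate, of -0.25 and Fads6 of -0.25. Of the other enzymes of the elongation cycle, 5 were tested and 0 were called. Ptplad1, a 3-hydroxyacyl-CoA dehydratase, had a log2 fold change of 0.30, Ptplb, another dehydratase, of -0.22, and Tecr, the enoyl reductase of the last step, of 0.27. Of 5 tested genes of electron supply to the desaturases, 0 were called, and the largest difference was that of Cyb5b (-0.47, adjusted p = 0.234 by edgeR's quasi-likelihood test). The median log2 fold changes of these 3 lists were -0.13, 0.27 and -0.12. The first was -0.00036 without Y67F-FXR replicate 1 and -0.018 without FXR-WT replicate 3. Without FXR-WT replicate 1, the second turned to -0.024 and the third was -0.022.

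Genes that activate, release or shorten long acyl chains included 3 called genes. Of 12 tested acyl-CoA synthetases and thioesterases, 10 had a positive log2 fold change, the median was 0.36, and 2 were called as higher. Of all 12453 tested genes, 6474 had a positive log2 fold change. Acsl3 (-0.66) and Acsl4 (-0.61), which activate long-chain fatty acids, were the 2 with a negative value, and every Y67F-FXR liver was below every FXR-WT liver for both. The groups also did not overlap for 6 of the 12 genes in the higher direction, compared with 10.5% (lower) and 10.2% (higher) of all tested genes. Acsl3 and Acsl4 were not called (adjusted p = 0.257 and 0.166 by edgeR's quasi-likelihood test) and are named after their values were seen. Acot1, a cytosolic acyl-CoA thioesterase, rose 2.64-fold, from 58.8 ± 7.28 to 155 ± 19.8 CPM (SD, n = 3 each). Acot2, its mitochondrial paralog, rose by 1.25 on the log2 scale, and Acot3 had a log2 fold change of 2.08 that was not called (adjusted p = 0.0909 by edgeR's quasi-likelihood test). Of 14 tested genes of peroxisomal chain shortening, the route that completes docosahexaenoic acid synthesis, 12 had a positive log2 fold change, with a median of 0.37. Acaa1b, a peroxisomal thiolase, was called (0.93), while Acaa1a (0.58) and Acot8 (0.49) were not. Acot1 and Acot2, and Acaa1a and Acaa1b, are close paralogs whose shared reads were not counted, so their levels are uncertain. Of 8 tested genes of alpha-oxidation, the pathway of Hacl1, 0 were called and the median was 0.16. The values for Slc27a2, Pex7 and Amacr were 0.38, 0.17 and 0.20.

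Of 15 tested genes of polyunsaturated fatty acid use and phospholipid remodelling, 2 were called as higher and the median log2 fold change was 0.04. Mfsd2a, a transporter of lysophospholipids that carry docosahexaenoic acid, had 58.8, 69.0 and 31.7 CPM in FXR-WT and 215, 192 and 187 CPM in Y67F-FXR replicates 1 to 3, with a log2 fold change of 1.89. Lpcat3, which places polyunsaturated chains in phospholipids, rose by 0.68 on the log2 scale and shares 289 exon bases with Emg1. Cyp4f14 differed by -0.72 on the log2 scale (adjusted p = 0.0718 by edgeR's quasi-likelihood test). Of 16 tested transcription factors and cofactors known to act on elongases and desaturases, 1 was called. The log2 fold change was negative for 10 of the 16, and the median was -0.19. The groups did not overlap for 5 genes lower and 5 higher in Y67F-FXR livers, against 10.5% and 10.2% of all tested genes. Insig2, an endoplasmic reticulum anchor of the SREBP complex, rose from 64.6 ± 2.88 to 125 ± 16.5 CPM (SD, n = 3 each), whereas its paralog Insig1 stood at -0.92 on the log2 scale (adjusted p = 0.124 by edgeR's quasi-likelihood test) and Nfyb, a subunit of NF-Y, of -0.45. Over all tested genes, 0.972% were called in either direction.

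Calls in these lists depended on single livers and on the test. With 1 liver left out, Acot1 lost its call only without FXR-WT replicate 3 (adjusted p = 0.0614), and Mfsd2a without FXR-WT replicate 1 or Y67F-FXR replicate 1 or 3 (0.0557 to 0.0819), all by edgeR's quasi-likelihood test. Acaa1b lost it without each liver except FXR-WT replicate 1 and Y67F-FXR replicate 2, Acot2 without each except FXR-WT replicate 1, and Lpcat3 and Insig2 without any 1 of the 6 livers (0.0537 to 0.186, by the same edgeR test). The log2 fold change of each was positive in all 6 fits. With the replicate number as a block, 0 genes of any of these lists were called. With DESeq2, 4 acyl-CoA synthetases and thioesterases and 1 gene of peroxisomal chain shortening were called. The same test called 3 genes of polyunsaturated fatty acid use and 2 of the list of transcription factors and cofactors.

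**Figure D5:**
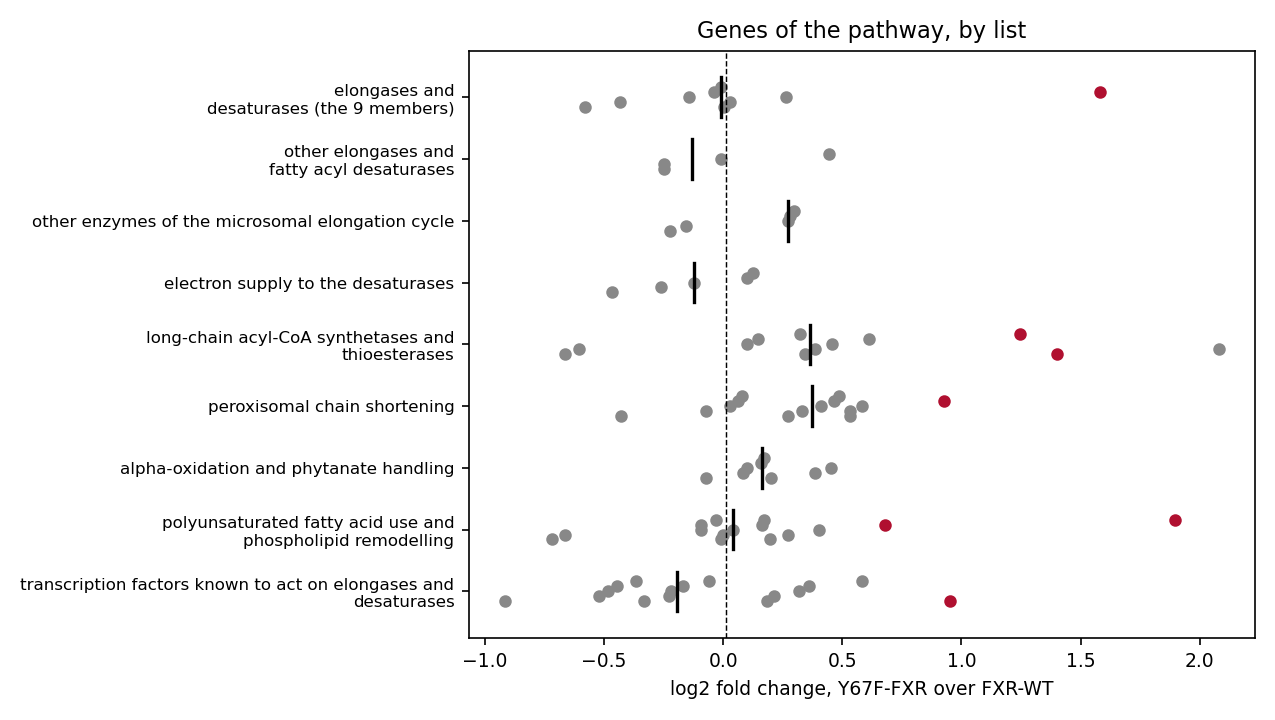
Log2 fold change in Y67F-FXR over FXR-WT livers of each tested gene of the 9 members and of 8 lists of related genes. Red marks called genes, vertical bars the list medians and the dashed line the median of all tested genes (0.01). The 7 called genes are all higher in Y67F-FXR livers, and 1 of them, Elovl3, is a member.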

How the data were processed

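Livers of 6 mice, 3 per group, were profiled by paired-end RNA-seq with 100 bp reads. The authors deposited raw gene counts from featureCounts (1.4.6-p4; UCSC annotation of mm9). Per the file headers, counting ignored strand, took each mate as its own read and dropped any read assigned to more than 1 gene or locus. The processing notes also name Trimmomatic 0.36 and STAR 2.5.3a. A table of the authors' own comparison (fold changes and p-values) was not used.

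Tests used edgeR 4.0.16 under R 4.3.3 (filterByExpr, TMM factors, glmQLFit, glmQLFTest, all 6 livers, no covariate) and DESeq2 1.42.0 as an alternative. The adjusted p-values were Benjamini-Hochberg values over all tested genes. Log2 CPM used a prior count of 2, and intervals are 95% intervals of the fit. Plots used matplotlib 3.10.9. The unit of replication is a mouse as labelled. Library totals of 19551113 to 22053320 reads leave little counting error for most members, and the spread between livers limits precision. On simulated counts with 200 changed genes (log2 fold change of 2), 99.5% were recovered and 7.01% of calls were false. The changed genes were drawn only from those with higher counts, and the noise was independent between genes. This recovery does not carry over to smaller changes such as the 1.58 of Elovl3. The members and lists were chosen with earlier results of these data known. Named were all members, called genes of each list and further list genes with the smallest adjusted p up to 3. Scd1, Elovl6, genes sharing exon bases with a member and genomic neighbours were also named. So were the 3 genes closest in pattern to Elovl3, Elovl5, Fads1, Fads2 and Scd2 (mean of at least 5 CPM). Alternatives were other scaling factors, tests, filters and thresholds, gene length offsets, a replicate block and each liver left out. Leaving out FXR-WT replicate 1 and Y67F-FXR replicate 2 together was chosen after seeing the data.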

Additional observations from a re-analysis of the deposited data

How the results depend on the processing

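Elovl3 was higher in Y67F-FXR livers in all 18 alternatives (log2 fold change 1.33 to 1.80), and its call was kept in 12. Among the 12 are no fold minimum and an unadjusted p, which loosen the threshold on the same fit and could not lose the call. The fit without FXR-WT replicate 1 and Y67F-FXR replicate 2, chosen after seeing the data, is also among them. The call was lost in 5 of 6 fits with a single liver left out and under the replicate block. Members called higher fell to 0 under the replicate block and were 0 to 1 with single livers left out. No other member was called in any alternative. Counts of all genes called lower and higher were 215 and 214 with DESeq2, 226 and 221 with the likelihood ratio test, 401 and 382 at an unadjusted p, 124 and 121 with gene length offsets, 97 and 105 without FXR-WT replicate 1 and Y67F-FXR replicate 2, and 7 to 33 and 2 to 35 with single livers left out. Without a filter, 81 were called lower. With library totals, 43.3% of calls were higher, against 56.2%. The causes were not tested.

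Whether the replicate numbers pair the samples is not known from the labels. Deviations of same-numbered livers correlated at -0.52, -0.08 and 0.12, and not every liver correlated best with its own number. Differences between libraries, such as those by gene length, also enter these values. They therefore cannot tell whether same-numbered mice shared a litter or a cage. With the replicate block, 6 genes were called lower and 2 higher, Elovl3 stood at 1.64 (adjusted p = 0.119, edgeR) and Elovl2 at -0.024. Called genes of the lists fell to 0 under the block. Without it, 2 acyl-CoA synthetases and thioesterases (6 at an unadjusted p) and 1 gene of chain shortening were called. So were 2 genes of polyunsaturated fatty acid use and 1 (Insig2) of the list of transcription factors and cofactors.

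Directions of the members near 0 turned. Elovl2 was -0.060 with library totals, -0.021 with length offsets and -0.20 to 0.19 with single livers left out. Fads2 was -0.039 with library totals and -0.21 to 0.25 with single livers left out. These ranges were -0.12 to 0.015 for Fads1, -0.39 to 0.062 for Fads3, -0.059 to 0.083 for Hacl1 and -0.29 to 0.14 for the log2 ratio of Fads1 to Fads2. Hacl1 was 0.0039 with length offsets, and Fads3 was 0.081 without FXR-WT replicate 1 and Y67F-FXR replicate 2.

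List medians moved with library totals to 0.092 (alpha-oxidation), -0.026 (polyunsaturated fatty acid use) and -0.27 (transcription factors), without a filter to 0.063 (elongation cycle) and -0.0078 (electron supply), with over 1 CPM in 3 livers to 0.10 (polyunsaturated fatty acid use), and without FXR-WT replicate 1 and Y67F-FXR replicate 2 to -0.029 (elongation cycle), 0.11 (alpha-oxidation) and 0.12 (polyunsaturated fatty acid use). With single livers left out they were -0.13 to -0.00036 (other elongases and desaturases), 0.14 to 0.25 (alpha-oxidation), -0.21 to -0.022 (electron supply), 0.33 to 0.51 (acyl-CoA synthetases and thioesterases), -0.024 to 0.31 (elongation cycle), 0.21 to 0.45 (peroxisomal chain shortening) and -0.0040 to 0.15 (polyunsaturated fatty acid use). The spread between 3 livers, rather than read depth, limits Fads2, Elovl5 and Elovl2, while Fads3 and Scd2 rest on 72 to 201 reads per library.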
